A study of Homo sapiens with 6 samples.

Results

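The mouse cells of the 10X Chromium libraries were described here by the transcripts they held and by how much these transcripts varied from cell to cell. In each 10X library the 2000 barcodes with the most counts stood for cells, and those with 90% or more of their counts on mouse transcripts were the mouse cells. The cells were therefore chosen by their total count and by their share of mouse counts. This gave 806 mouse cells in the library with 30 PCR cycles and 881 in the library with 35 cycles, or 1687 of the 4000 10X cells and of the 6000 cells of the whole series.

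The series held 6 samples of mixed human and mouse myeloma cells, labelled JJN3 and 5TGMG1, on the 10X Chromium or the Drop-seq platform, with nanopore reads. Both 10X libraries came from a single channel loaded with cells of both lines in equal parts, and the cDNA was split after a first round of PCR, so the same captured cells were amplified to 30 or 35 cycles in all. They were 1 library per cycle number, with no replicate and no test between them. The 95% intervals of shares and ratios given below hold counting error and no other error. Those of medians reflect the spread over cells or over transcripts, and none holds differences between replicate libraries.

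The mouse line is written 5TGM1 in the study. It is a line of multiple myeloma, a tumour of plasma cells, which are the B lineage cells that secrete antibody. Such cells are known for devoting much of their RNA to immunoglobulin chains and for a large endoplasmic reticulum in which the chains are folded. A unique molecular identifier (UMI) is a random sequence attached to each captured RNA before PCR, so that copies can be collapsed and counted as 1 molecule.

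The files do not pair mouse transcripts with gene names, so transcripts are given by identifier. The exception is ENSMUST00000034966, which the study names as Rpl4, a protein of the large ribosomal subunit. UMI counts were not divided by transcript length, and shares of counts are given throughout.

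At 30 cycles 13857 barcodes shared 494147 counts, and at 35 cycles 18087 barcodes shared 740994. Mouse cells held 23.3% and 24.9% of these. No value below 2 was stored in either library. A transcript that is not stored in a cell may therefore have had 1 count, and how much this removed from each library was not tested. Here a transcript is said to be stored in a cell when the matrix gives it a value.

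Of the 30-cycle cells 40.3% were mouse cells (38.1 to 42.5%, exact Clopper-Pearson), and of the 35-cycle cells 44.05% (41.9 to 46.3%). Their UMI counts ran from 76 to 1187 at 30 cycles, with a median of 117 (interval of the median from its order statistics 113 to 122). At 35 cycles they ran from 114 to 1319, with a median of 171 (166 to 178). Human cells of the same libraries had medians of 118 and 171.

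The last cell taken had 76 counts at 30 cycles and 114 at 35 cycles, and so had the first barcode left out. Of the next 2000 barcodes, 904 and 874 also had at least 90% of their counts on mouse transcripts, so the number of cells was set by the label and not by a gap in the counts. Just inside the purity threshold lay cells with 90%, 90% and 90.1% mouse counts at 30 cycles, and just outside lay cells with 89.8%, 89.8% and 89.7%. At 35 cycles these values were 90%, 90.2% and 90.3% inside and 89.9%, 89.7% and 89.7% outside. The median share of human counts in a mouse cell was 0.861% at 30 cycles and 1.04% at 35 cycles, and 47.6% and 43.0% of the mouse cells stored no human transcript.

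Since the cDNA was split, the same cell could be followed by its barcode. Of the mouse cells, 631 barcodes were mouse cells in both libraries, which was 78.3% of those at 30 cycles and 71.6% of those at 35 cycles. A further 169 mouse cells of the 30-cycle library and 241 of the 35-cycle library were stored in the other library with too few counts to be among its cells. Just 6 and 9 were mixed in the other library, and 0 were human there. Where a barcode was a cell on both sides of the split, its species call was thus the same apart from these.

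A shared cell had a median of 1.51 times as many counts at 35 cycles as at 30 cycles, with quartiles of 1.24 and 1.86. The count was higher at 35 cycles in 582 of the 631 cells (92.2%). Reads per library were not used here, so a difference in sequencing depth cannot be told apart from one in cycle number.

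**Figure D1:**
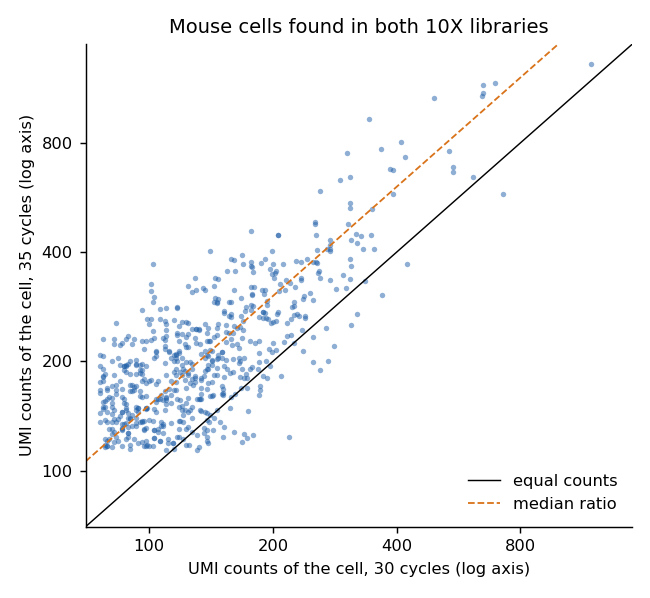
UMI counts of the 631 mouse cells found in both 10X libraries, at 30 cycles (x axis) and 35 cycles (y axis), both on log axes. Each point is 1 cell, the solid line marks equal counts and the dashed line the median ratio of 1.51. Of the 631 points, 582 lie above the solid line.

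The transcriptome of a single mouse cell was thinly sampled. The median cell stored 53 transcripts in the 30-cycle library (52 to 55) and 75 in the 35-cycle library (72 to 77), and 84.4% and 79.5% of all stored values were the smallest one, 2. The largest value for 1 transcript in 1 mouse cell was 20 at 30 cycles and 27 at 35 cycles. Thinned to 200 counts, cells stored a median of 110 transcripts at 30 cycles (107 to 114, 112 cells with 694 left out as shallower) and 108 at 35 cycles (106 to 111, 318 cells with 563 left out). The intervals of these medians overlapped. Thinned to 100 counts, which kept 522 and 881 cells, the medians were 60 (59 to 61) and 64 (62 to 64), and the intervals did not overlap.

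Over all mouse cells of a library 12034 mouse transcripts were stored at 30 cycles and 14382 at 35 cycles, and 7864 of the 18552 were stored in both. Those 7864 carried 90.5% of the mouse transcript counts at 30 cycles and 89.0% at 35 cycles, and the transcripts of 1 library alone therefore held few counts. Of the stored transcripts, 6436 and 7101 were found in 1 cell each. A wide share of cells was reached by few of them: 72 and 96 transcripts were stored in at least 10% of the mouse cells, and 7 and 13 in at least 50%.

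No transcript dominated the mouse cells as a whole. Their share on the 10 most abundant was 10.2% in the 30-cycle library (10.1 to 10.4%) and 11.2% in the other (11.1 to 11.3%), compared with 14.1% and 20.3% for the 10 most abundant human transcripts in human cells. It took 441 transcripts at 30 cycles and 363 at 35 cycles to reach 50% of the counts of mouse cells.

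The most abundant transcript at 30 cycles was ENSMUST00000020488, with 1838 counts or 1.60% of all counts of mouse cells (1.53 to 1.67%). At 35 cycles it had 2372 counts or 1.29% (1.23 to 1.34%) and ranked second. It was stored in 76.3% and 80.9% of the mouse cells, with a median of 2 and 3 counts in a cell and at most 9 and 14. In human cells it was stored in 2.29% and 0.329%.

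ENSMUST00000019649 ranked second at 30 cycles with 1331 counts (1.16%, 1.10 to 1.22%) and first at 35 cycles with 3934 counts (2.13%, 2.07 to 2.20%). The share of mouse cells storing it went from 58.6% to 91.4%, and the median count in a cell from 2 to 4. These intervals did not overlap between the libraries. In human cells it was stored in 1.39% and 2.63%.

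Below these followed ENSMUST00000046514 (1.08% of counts at 30 cycles and 0.929% at 35 cycles), ENSMUST00000144826 (1.05% and 0.926%) and ENSMUST00000192284 (1.01% and 0.862%). ENSMUST00000106454 and ENSMUST00000016703 held 0.953% and 0.947% at 30 cycles and 1.19% each at 35 cycles. Lists of the 15 most abundant of each library named 17 transcripts in all, of which 13 stood in both. These 17 were stored in 25.7 to 76.3% of mouse cells at 30 cycles and in 38.0 to 91.4% at 35 cycles. The highest share of human cells that stored any of them was 2.63%, a share that is limited by the choice of human cells for few mouse counts.

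**Figure D2:**
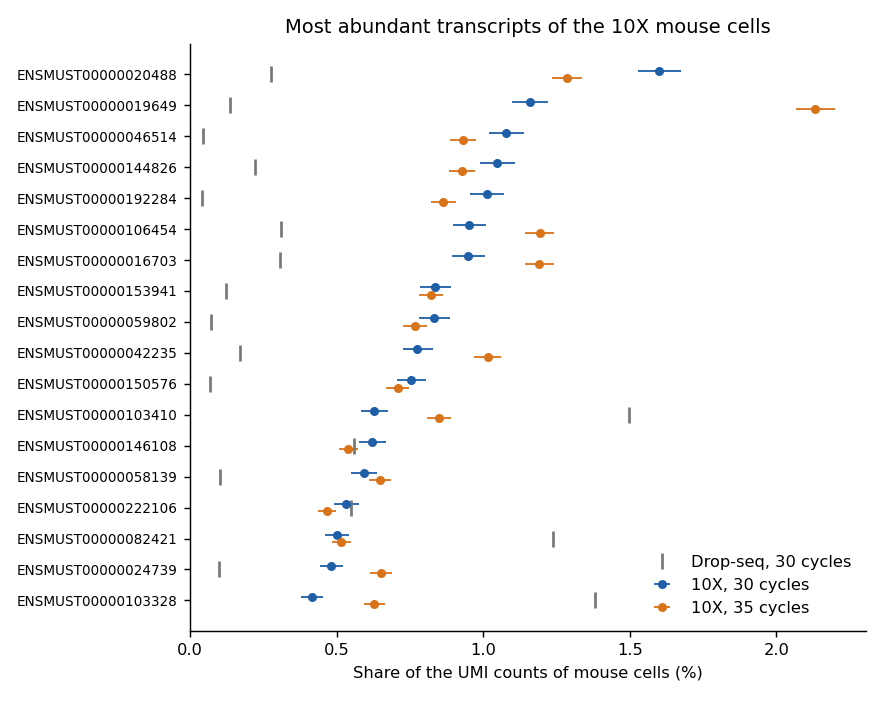
Share of the UMI counts of mouse cells (x axis, %) held by the 17 most abundant transcripts of the 10X mouse cells and by the marker ENSMUST00000082421 (y axis), at 30 cycles (blue) and 35 cycles (orange), with exact 95% intervals of counting. Grey ticks give Drop-seq mouse cells at 30 cycles, where no value below 3 was stored, while the smallest stored value in 10X was 2. ENSMUST00000019649 stands at 1.16% and 2.13%, and ENSMUST00000103410, ENSMUST00000103328 and ENSMUST00000082421 have their grey ticks far to the right of the 10X points.

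Some of these transcripts had nearly the same counts cell by cell. ENSMUST00000106454 and ENSMUST00000016703 had the same value in 99.0% of the cells with either at 30 cycles and in 99.5% at 35 cycles. In all, 34 of the 125 transcripts with at least 100 counts at 30 cycles (27.2%) and 69 of 229 at 35 cycles (30.1%) belonged to sets whose values were equal in at least 90% of the cells holding any of a pair. Reads that fit several transcripts of a gene, or near-identical copies, can be counted in more than one of them, so the level of each single transcript in such a set is uncertain.

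The transcripts that mark mouse cells throughout the series were ENSMUST00000103410 and ENSMUST00000082421. In Drop-seq they had ranks 1 and 3 in mouse cells at each of the 3 cycle numbers. In 10X mouse cells ENSMUST00000103410 had 722 counts at 30 cycles (0.628%, 0.583 to 0.675%, rank 12) and 1565 at 35 cycles (0.848%, 0.807 to 0.891%, rank 9). It was stored in 36.6% and 59.9% of the mouse cells and in 0.696% and 0.659% of the human cells.

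ENSMUST00000082421 had 574 counts at 30 cycles (0.499%, 0.459 to 0.542%, rank 16) and 949 at 35 cycles (0.514%, 0.482 to 0.548%, rank 19). It was stored in 26.3% and 36.0% of mouse cells, against 0.199% and 0.110% of human cells. Both markers were thus concentrated in mouse cells, although neither led the 10X profile. Because the mouse cells were chosen on mouse counts, this contrast with human cells is a description.

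Compared with Drop-seq mouse cells at 30 cycles, the order of the abundant transcripts differed. ENSMUST00000103410 held 1.496% there and ENSMUST00000103328 held 1.38%, while ENSMUST00000046514 held 0.0446% and ranked 308. Of the 17 most abundant 10X transcripts, 4 were among the 15 most abundant in that Drop-seq library and 7 ranked below the first 100. The Drop-seq pair stored no value below 3, but the 25-cycle Drop-seq library, which stored values of 1, had the same order: ENSMUST00000103410 and ENSMUST00000103328 held ranks 1 and 2 there, and ENSMUST00000046514 held 0.0350% with rank 348. The 10X libraries stored no value below 2. With values below 3 left out of 10X before cells were chosen, ENSMUST00000103410 held 1.09% at 30 cycles, against 1.496% in Drop-seq. At 35 cycles it held 1.73% against 1.34%. ENSMUST00000082421 then held 1.14% at 30 cycles, against 1.24% in Drop-seq. Other transcripts were not compared in this way, and the part of the threshold in the difference was not tested. Capture platform, library and smallest stored value cannot be told apart in the difference.

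ENSMUST00000082421 sits in the run of identifiers from ENSMUST00000082387 to ENSMUST00000082423. With ENSMUST00000084013 added, these 38 identifiers were described as a list. Of these, 13 had counts in mouse cells, where the list held 2.34% of all counts in the 30-cycle library (2.25 to 2.43%) and 2.07% in the 35-cycle library (2.01 to 2.14%). In human cells the same identifiers held 0.0147% and 0.00650%, and in Drop-seq mouse cells 4.31% at 25 cycles, 4.12% at 30 cycles and 3.94% at 35 cycles. The share in a single 10X mouse cell had a median of 1.61% at 30 cycles and 1.47% at 35 cycles and reached 24.2% and 14.05%. Over the 631 shared cells the share at 30 cycles correlated with that at 35 cycles (Pearson's r = 0.49, Spearman's rho = 0.52). These points share the captured cDNA of each cell, and the correlation is a description.

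To ask which transcripts varied between cells beyond counting, the variance of each transcript over mouse cells was divided by the variance that Poisson counting gives at each cell's depth with values below 2 left out. A ratio of 1 means no more variation than counting. For the 38 transcripts with at least 300 counts in each library the median ratio was 1.17 at 30 cycles (1.12 to 1.23) and 1.16 at 35 cycles (1.10 to 1.21). By this ratio most abundant transcripts stood little above counting, with 34 of the 38 below 1.5 at 30 cycles and 33 at 35 cycles. At few counts per cell the ratio can lie near 1 even where the level of a transcript differs between cells. A low ratio therefore does not show equal levels.

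The most variable were ENSMUST00000099047 (ratio 3.64 at 30 cycles and 5.55 at 35 cycles), ENSMUST00000075573 (3.21 and 4.95) and ENSMUST00000099046 (2.75 and 4.39). They are called the 3 most variable transcripts below, which holds for the minimum of 300 counts: over the 79 transcripts with at least 150 counts in each library, ENSMUST00000099683 came second (3.53 and 5.64), and ENSMUST00000075573 and ENSMUST00000099046 had ranks 3 and 4. In the order given, a cell's share of these transcripts at 30 cycles correlated with its share at 35 cycles at r = 0.93, 0.90 and 0.90 over the 631 shared cells. The median of this correlation over the 38 transcripts was 0.24, so for most transcripts a cell's value in one library said little of its value in the other.

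ENSMUST00000100497 came next with ratios of 1.80 and 1.87 and r = 0.60, and was stored in 22.1% and 18.5% of the mouse cells with at most 13 and 11 counts in a cell. The marker ENSMUST00000082421 (1.37 and 1.46, r = 0.44), ENSMUST00000019649 (1.31 and 1.98, r = 0.38), ENSMUST00000082414 (1.302 and 1.48, r = 0.40) and ENSMUST00000024739 (1.32 and 1.27, r = 0.33) followed. The ratio of ENSMUST00000019649 was the one of these that moved most between the libraries. Its counts rose from 1331 to 3934, and the ratio depends on the count per cell. Whether its relative variation changed was not tested.

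**Figure D3:**
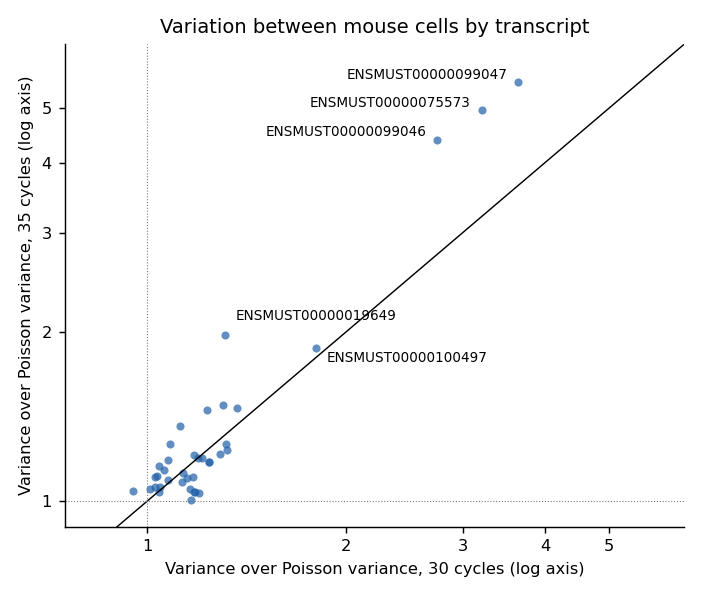
Variance of each transcript over mouse cells divided by the variance of Poisson counting, at 30 cycles (x axis) and 35 cycles (y axis), both on log axes and without a unit. Each point is 1 of the 38 transcripts with at least 300 counts in each library, dotted lines mark a ratio of 1 and the solid line equal ratios. ENSMUST00000099047, ENSMUST00000075573 and ENSMUST00000099046 lie between 2.75 and 5.55, apart from the remaining 35.

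These 3 transcripts were stored in a minority of mouse cells. Any of them was stored in 104 of 806 mouse cells at 30 cycles (12.9%, 10.7 to 15.4%) and in 129 of 881 at 35 cycles (14.6%, 12.4 to 17.2%). All 3 were stored together in 70 and 92 of these cells. In human cells any of them was stored in 11 of 1006 (1.09%, 0.547 to 1.95%) and 8 of 911 (0.878%, 0.380 to 1.72%).

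Among the cells storing them, the 3 transcripts together had a median of 9 counts at 30 cycles, with a lowest value of 2 and a highest of 44, and a median of 11 at 35 cycles, from 2 to 70. They made up a median of 6.04% and 5.42% of such a cell's counts and as much as 39.2% and 39.8%. The cells were deeper than those without them, with median totals of 136 against 115 at 30 cycles and 197 against 168 at 35 cycles. With the 3 transcripts left out, the medians were 126.5 against 115 and 184 against 168. The part of depth in whether a cell stored them was not tested.

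The same cells stored them in both libraries. Of the 631 shared cells, 88 stored any of the 3 at 30 cycles and 101 at 35 cycles, and 79 did so in both. That was 89.8% of the 88, whereas 4.05% of the 543 cells without them at 30 cycles had them at 35 cycles. The 22 cells with them at 35 cycles alone had a median of 4 counts of them, against 16 in the cells with them in both. A cell's summed share correlated between the libraries at r = 0.94 (rho = 0.84) over the 631 shared cells and at r = 0.90 (rho = 0.80) over the 79.

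Further transcripts were found in the same cells. Of 205 mouse transcripts with at least 60 counts at 30 cycles, 11 beside the 3 had at least 90% of these counts in the 104 cells. This rule did not use the values of the 11 in the 35-cycle library, although the 3 had been picked on both libraries. At 35 cycles the 11 had a median of 95.7% of their counts in the shared cells that stored the 3 at 30 cycles, from 90.8 to 98.7%. Those cells were 13.9% of the shared cells, and the other 191 transcripts had a median of 13.95% of their counts in them, from 0 to 44.4%. The 35-cycle values come from the same captured cDNA and are no independent sample. Choosing the 11 for their place in these cells at 30 cycles thus favours a high share at 35 cycles. Their contrast with the other 191 is a description.

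The 11 were led by ENSMUST00000143083 with 292 counts at 30 cycles and 459 at 35 cycles, ENSMUST00000177722 with 255 and 401, and ENSMUST00000099683 with 227 and 428. Together the 14 transcripts held 2.50% of the counts of mouse cells at 30 cycles and 2.59% at 35 cycles. A cell with any of them stored a median of 7 of the 14 at 30 cycles and 9 at 35 cycles, and up to 14. In Drop-seq mouse cells they held 0.0398% at 25 cycles, 0.0124% at 30 cycles and 0.0152% at 35 cycles.

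Whether the 14 transcripts have similar sequences, so that 1 molecule is counted in several of them, was not tested, since no mouse sequence was used here. ENSMUST00000099047 and ENSMUST00000075573 were stored together in 83 of the 100 cells with either at 30 cycles and had equal values in 33.0% of them. At 35 cycles they were together in 104 of 123 cells and equal in 20.3%. Their values were therefore close (r = 0.94 and 0.95 over all mouse cells) but not copies of each other.

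In cells with any of the 14 they made up a median of 12.4% of the counts at 30 cycles and 11.3% at 35 cycles, and above 50% in 7 cells of each library. The highest shares were 91.1% and 93.8%. The stored barcodes of the 4 cells with the highest shares summed over both libraries are shown because the barcode is what ties a cell of one library to the same cell of the other.
Cell 1: ttgcactcct
Cell 2: acttgtgatg
Cell 3: agagggaact
Cell 4: catcgctaca

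Cell 1 had 72 of its 82 counts on the 14 transcripts at 30 cycles (87.8%) and 120 of 128 at 35 cycles (93.8%). Cell 2 had 65 of 77 (84.4%) and 138 of 150 (92%), and cell 3 had 79 of 92 (85.9%) and 190 of 230 (82.6%). Cell 4 had 106 of 164 (64.6%) and 165 of 247 (66.8%). Beside these transcripts cell 1 had 10 and 8 counts left, so its total and its purity both rested on them.

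The 14 transcripts therefore bore on the choice of cells. Of the 113 cells with any of the 14 at 30 cycles, 28 (24.8%) had fewer than 76 counts without them and would not have been among the cells. At 35 cycles this held for 27 of 136 (19.9%) with fewer than 114 counts. When totals and purity were computed without the 14 transcripts, which was decided once the data were known, 9.62% of 790 mouse cells (7.65 to 11.9%) stored any of the 3 at 30 cycles and 11.8% of 863 (9.74 to 14.2%) at 35 cycles.

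**Figure D4:**
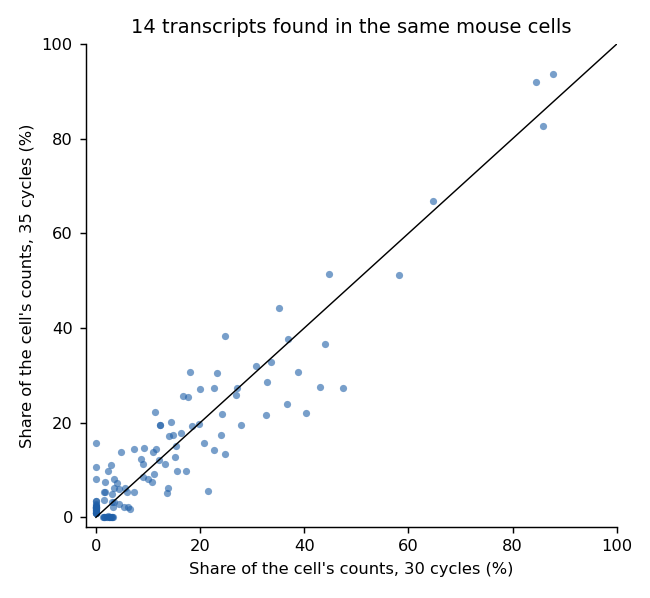
Share of a cell's UMI counts held by the 14 transcripts found in the same mouse cells, at 30 cycles (x axis, %) and 35 cycles (y axis, %), for the shared mouse cells with any of them in either library. Each point is 1 cell and the line marks equal shares. The 4 cells furthest to the upper right hold 64.6 to 93.8%.

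The leading transcripts of the mouse cells were also found in the cells that stored the 3. Shares of the counts left after taking out the 14 were compared for 10 named transcripts. The intervals overlapped for 7 of the 10 at 30 cycles and for 5 at 35 cycles. Of the rest, 1 was higher and 2 were lower in cells with the 3 at 30 cycles, and 1 was higher and 4 were lower at 35 cycles. At 35 cycles the higher one was ENSMUST00000100497, at 0.439% against 0.240%. Its intervals overlapped at 30 cycles (0.579% against 0.496%). At 30 cycles the higher one was ENSMUST00000082421, at 0.655% against 0.489%, and its intervals overlapped at 35 cycles. ENSMUST00000020488 held 1.56% in cells with the 3 and 1.65% in cells without at 30 cycles, and 1.17% and 1.35% at 35 cycles. ENSMUST00000103328 was lower in cells with the 3 in both libraries, at 0.264% against 0.451% and at 0.501% against 0.669%, without overlap of the intervals. It was stored in 19.2% of these cells against 26.6% at 30 cycles, and in 40.3% against 49.2% at 35 cycles. The intervals treat each count as independent, although no value below 2 was stored, so they may be too narrow. Many of the cells were the same in both libraries, so the 35-cycle values are no independent sample. No other of the 10 differed in both libraries.

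The 3 transcripts were rare in Drop-seq mouse cells labelled with the same line. With values below 2 left out of the 25-cycle library, 2 of its 590 mouse cells stored any of them (0.339%, 0.0411 to 1.22%). In the Drop-seq libraries at 30 and 35 cycles, where no value below 3 was stored, it was 1 of 291 (0.344%) and 1 of 309 (0.324%). With values below 3 left out of the 10X libraries as well, 73 of the same 806 mouse cells at 30 cycles (9.06%, 7.17 to 11.3%) and 100 of the 881 at 35 cycles (11.4%, 9.33 to 13.6%) stored any of them. The intervals of the 10X libraries lay above those of the 3 Drop-seq libraries. The 3 transcripts were picked on their counts and variance in the 10X libraries and not in Drop-seq. This choice favours a higher value in 10X, so the contrast is a description.

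**Figure D5:**
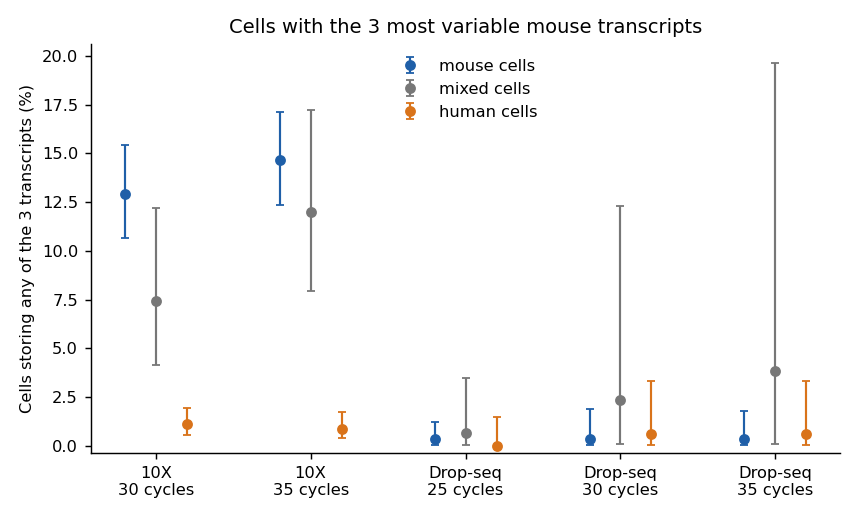
Percent of cells (y axis) that store any of ENSMUST00000099047, ENSMUST00000075573 and ENSMUST00000099046 by library (x axis), for mouse, mixed and human cells, with exact 95% intervals. Values below 2 are left out everywhere, and the Drop-seq libraries at 30 and 35 cycles store none below 3. The 10X mouse cells stand at 12.9% and 14.6%, and the Drop-seq mouse cells between 0.324 and 0.344%. The 3 transcripts were picked on 10X values.

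How far a stored value carried over from one library to the other depended on its size. In the 631 shared cells, mouse transcript values of 2 at 30 cycles were stored again at 35 cycles in 19.6% of 36065 cases (19.2 to 20.0%). The share was 47.1% for values of 3, 74.5% for values of 4 and 90.2% for values of 5 to 9. All 39 values of 10 or more were stored again (91.0 to 100%). Of all 43029 values 25.4% were, and since most values were 2, most entries of a cell were not seen in its other library.

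The last question was which transcripts took another share of the mouse counts at 35 cycles than at 30 cycles. Of 348 mouse transcripts with at least 100 counts over both libraries, 62 (17.8%) differed by 2-fold or more in their share of counts, which is a size and no test. Of these, 40 (11.5% of the 348) were higher at 35 cycles and 22 (6.32%) were lower. The median log2 ratio of all 348 was 0.23 (SD 0.79), and with the ratios centred on this median 21 were higher and 30 lower. Centring moved every ratio by the same amount, so the balance of calls followed the scaling, while no transcript was called in the opposite direction.

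The transcript ENSMUST00000105598 had the highest ratio, with 16 counts at 30 cycles and 106 at 35 cycles (log2 ratio 2.01, exact conditional interval 1.28 to 2.90). ENSMUST00000181983 came next with 19 and 108 counts (1.79, 1.11 to 2.61). The lowest ratios were those of ENSMUST00000099224, with 90 and 16 counts (-3.14, -4.04 to -2.40), and ENSMUST00000168776, with 289 and 100 counts (-2.21, -2.56 to -1.88). The first 2 were stored in fewer than 1% of mouse cells at 30 cycles, at 0.993% each, and in 5.22% and 5.56% at 35 cycles. ENSMUST00000168776 went the other way, from 15.5% to 5.22% of the cells.

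The Rpl4 transcript ENSMUST00000034966 had 230 counts at 30 cycles, or 0.200% (0.175 to 0.228%), and 790 at 35 cycles, which was 0.428% (0.399 to 0.459%) of the library's mouse cell counts. Its log2 ratio was 1.10 (0.88 to 1.32), and the share of mouse cells storing it went from 12.8% to 37.1%, with 0 and 2 counts in human cells. It was past the 2-fold threshold here, but with the median of all ratios as the centre it would lie below it.

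Among the 17 most abundant transcripts 0 differed by 2-fold or more, against 17.8% of all 348. The interval of the log2 ratio lay above 0 for 7 of them, below 0 for 7 and held 0 for 3. Relative to the median of 0.23, it lay above for 5 and below for 9. ENSMUST00000019649 had the highest ratio of the 17 (0.88, 0.79 to 0.97), and ENSMUST00000020488 the lowest (-0.31, -0.40 to -0.23). The marker ENSMUST00000103410 stood at 0.43 (0.31 to 0.56) and ENSMUST00000082421 at 0.04 (-0.11 to 0.19), which is below the median of all ratios. The 3 most variable transcripts had log2 ratios of -0.0012 for ENSMUST00000099047, -0.08 for ENSMUST00000075573 and 0.06 for ENSMUST00000099046, and each interval held 0.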

How the data were processed

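The authors base called nanopore reads with Guppy, found barcodes and UMIs beside the polyA tail, aligned them to hg38 and mm10 transcripts with minimap2, and collapsed the 10X UMIs with UMI-tools in its directional mode. The deposited matrices hold whole-number UMI counts per barcode and transcript, without normalization. Stored barcodes had 10 bases, fewer than the study's methods give, so different cells could share one. The smallest stored values were 2 in 10X and 1 or 3 in Drop-seq, and how they arose is not given in the sources used here. The labels name hg38 alone. The 30 and 35 cycles are those of the labels, which equal the sum of cycles before and after the split in the study's methods. The study's main text gives lower totals, 20 and 25.

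The work used scipy 1.17.1, numpy 2.4.6, pandas 2.3.3 and matplotlib 3.10.9 under Python 3.11.15. Cells were the 2000 barcodes with most counts, ties by barcode name, at 90% mouse counts. Doublets within a species were not removed, as no doublet caller was run. Intervals are exact Clopper-Pearson for shares, and medians have order-statistic intervals and ratios exact conditional binomial intervals at a pseudocount of 0.5 counts. PCR copies are not independent molecules, so the intervals of shares and ratios cover counting error only. Those of medians reflect the spread over cells or over transcripts, some of which had nearly the same counts. The variance ratio and the ratio of shares were tested on simulated data.

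The rule for named transcripts took the 15 most abundant of each library, both markers, the Rpl4 transcript, the 8 most variable with at least 300 counts in each library, and the 3 highest and 3 lowest ratios, of which 2 each are printed because the files do not pair identifiers with names. Lists of plasma cell, ribosomal, folding and cell cycle genes given by symbol could not be applied for the same reason. The members, rules and lists were chosen with earlier results of these data known. The transcripts found in the same cells, with their minimum of 60 counts and 90%, ENSMUST00000103328, ENSMUST00000082414, the pairs compared and the 10 transcripts compared between cells with and without the 3 were chosen after their values were seen. Alternatives changed the purity, the barcodes taken as cells, the smallest value kept, the thinned depth, the minimum counts and the scaling.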

Additional observations from a re-analysis of the deposited data

Results flagged for a closer look

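In mouse cells, 3 of the 21 named transcripts compared had opposite directions between 35 and 30 cycles on the 2 platforms, with both counting intervals away from 0. The difference between the platforms was not tested, since there was 1 library per cycle number on each. The study used UMIs of single bases in 10X and UMIs built of blocks of 3 equal bases in Drop-seq. Platform and UMI design therefore cannot be told apart here. The intervals treat each count as independent, although this Drop-seq pair stored no value below 3, so they may be too narrow. ENSMUST00000034966 (Rpl4) had a log2 ratio of 1.10 in 10X (0.88 to 1.32) and of -0.19 in Drop-seq (-0.38 to -0.0016). Its Drop-seq interval ended close to 0, so its direction there is uncertain. The study names it for a difference between the 10X libraries, so its 10X ratio is no independent result. ENSMUST00000103328 had 0.60 in 10X (0.44 to 0.76) and -0.15 in Drop-seq (-0.22 to -0.07). ENSMUST00000103410 had 0.43 in 10X (0.31 to 0.56) and -0.16 in Drop-seq (-0.23 to -0.08). Of these, ENSMUST00000103410 and ENSMUST00000103328 had correlated shares over 10X mouse cells (r = 0.83 at 30 cycles and 0.87 at 35 cycles), so they are not independent of each other. Of all 148 transcripts with at least 100 counts over the pair on each platform, 6 (4.05%) had such opposite intervals. In 10X all 3 lay above the median log2 ratio of 0.23. The median in Drop-seq was -0.0082 over 635 transcripts, and the Drop-seq interval lay below it for 2 of the 3.

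Mixed cells, which the comparisons of the report leave out, stored the 3 most variable mouse transcripts more often than human cells did. At 30 cycles it was 14 of 188 mixed cells (7.45%, 4.13 to 12.2%), against 1.09% of human cells (0.547 to 1.95%). At 35 cycles it was 25 of 208 mixed cells (12.02%, 7.93 to 17.2%), against 0.878% of human cells (0.380 to 1.72%). Human cells were chosen to hold at most 10% mouse counts, so the choice of cells fixes this order and the values are a description.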

How the results depend on the processing

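With 1 library per group no library could be left out. No pairing of replicate libraries was possible because each cycle number had 1 library and the labels give no replicate numbers. Cells were paired by barcode, libraries were not. A value was held to have moved when it left the 95% interval of the value reported, or, for a number of transcripts, when it changed by more than 1.5 times. Of 85 values 43 moved, and of 18 further values under settings added once the data were known 5 moved. The causes were not tested. Values are given for 30 and then 35 cycles unless named.

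A purity of 95% lowered mouse cells to 35.2% and 40.1% of the cells. With 1000 barcodes taken as cells, the median counts were 161 and 237, the transcripts per cell 73 and 102, the share of the 10 most abundant transcripts 9.19% and 10.1%, that of ENSMUST00000103410 0.560% and 0.789%, and cells storing the 3 most variable transcripts 16.4% and 18.1%. With all barcodes of at least 100 counts the median counts were 143.5 and 155, the transcripts per cell 65 and 68, and the share of the 10 most abundant 9.55% and 11.45%. Barcodes that were mouse cells in both libraries were 31.55% of the cells in each, with median counts of 129 and 196 and 59 and 85 transcripts per cell, and at 35 cycles the 10 most abundant held 10.9%.

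With values below 3 left out, mouse cells were 34.55% and 31.75% of the cells, the median counts 30 and 62, the transcripts per cell 9 and 17, the share of the 10 most abundant 24.8% and 25.1%, that of ENSMUST00000103410 1.09% and 1.73%, that of ENSMUST00000082421 1.14% and 0.965%, and at 35 cycles 17.5% of the cells stored the 3 most variable transcripts. The share of ENSMUST00000082421 was then lower at 35 than at 30 cycles. Choosing cells without the 14 transcripts gave 9.62% and 11.8% of cells storing the 3.

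Thinned to 100 counts, cells stored 60 and 64 transcripts, with intervals that no longer overlapped, and thinned to 400 counts 232 (14 cells) and 207 (47 cells). The median correlation of a cell with itself was 0.33 over the 108 shared cells with at least 200 counts in both libraries. The number of transcripts 2-fold apart was 200 of 760 at a minimum of 50 counts, 26 of 182 at 200 counts and 40 of 282 over shared cells. At 200 counts 11 were higher and 15 lower. Centring on the median of ratios shifted every ratio alike and gave 51 in all. Depth limits all values of single cells.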

Other observations

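Among the 2000 barcodes that followed the cells by count, those with at least 90% mouse counts also stored the 3 most variable transcripts. At 30 cycles it was 53 of 904 (5.86%, 4.42 to 7.60%) at a median of 52 counts per barcode, and at 35 cycles 62 of 874 (7.09%, 5.48 to 9.002%) at a median of 82.5 counts. Of the barcodes there with at least 90% human counts, 2 of 986 (0.203%) and 5 of 1058 (0.473%) stored them.

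Of the 806 mouse cells at 30 cycles, 90 had a stored barcode 1 mismatch from that of another mouse cell, and at 35 cycles 88 of 881 did. Such barcodes were kept as separate cells throughout. Whether some of them come from the same cell, and how many would lie this close by chance, was not tested. Of the cells storing the 3 most variable transcripts, 2 of 104 and 2 of 129 lay 1 mismatch from another that stored them. Of the cells without them, 70 of 702 and 66 of 752 lay 1 mismatch from another without them. A storing cell had fewer cells of its kind to lie near, so these shares are not directly comparable.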
